A study of Mus musculus with 7 samples.

Results

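Genes of fatty acid oxidation and ketone body metabolism were followed in the retinal pigment epithelium (RPE) of mice that carry the rd6 allele of Mfrp. The list held 34 genes, chosen by their known part in mitochondrial or peroxisomal fatty acid oxidation, in ketone metabolism or in the control of both, and 31 of them were measured, of 19938 genes in all. A gene was measured where a probe set of the array was annotated to its symbol alone, and the brightest such probe set was used. Cpt1b and Acsl3 lay only on probe sets shared with another gene, and no probe set was annotated to Acsl1, so these 3 genes were left out. Of the 31 measured genes, 30 had a mean above the median gene of the array. None was left out for a low value.

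The RPE is the pigmented layer between the photoreceptors and the choroid. It takes up shed outer segments rich in lipid every day, burns their fatty acids in its mitochondria and can pass on part of the carbon as ketone bodies, which the photoreceptors use as fuel. In the pathway, acyl-CoA synthetases activate a fatty acid, the carnitine shuttle carries it into the mitochondrion, and a cycle of dehydrogenation, hydration, a further dehydrogenation and thiolysis shortens it. The electrons of the first step pass through the electron transfer flavoprotein to the respiratory chain, and PPAR nuclear receptors with their coactivators set the level of many genes of the pathway.

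The comparison was between C57Bl/6J mice without the mutation (wild type, 4 arrays) and C57Bl/6J mice with the Mfrp rd6 genotype (3 arrays), and the labels name no treatment of either group. Mfrp encodes a membrane protein of the RPE, and rd6 is a recessive allele, present in every cell of the animal, that leads to retinal degeneration. The age field of the labels puts the wild-type samples at 8 weeks and the Mfrp rd6 samples at 12 weeks, whereas by the growth protocol all were 8 weeks old but Mfrp rd6 replicate 1, at 12 weeks. If the age field is right, age and genotype cannot be told apart. The labels do not say how many animals went into a sample or that replicates are different animals, and the p-values below reflect the variation among these arrays alone, part of which may be technical. Mfrp has no probe set of its own (the one it is annotated to also names C1qtnf5), so its level was not used to check the genotype labels.

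Each sample was RNA of cells shaken loose from the eyecup after cornea and lens were taken off, measured on 1 array as log2 values. The array medians lay between 6.52 and 6.58, and the number of arrays limits the precision. The mean of 10 RPE markers was 11.41 to 11.54 on the wild-type arrays and 11.29 to 11.42 on the Mfrp rd6 arrays. By the test used below, 0 were higher and 1 lower (Lrat, -0.40, limma adjusted p = 0.0277). Arrays did not overlap for 3 (30.0%, against 15.3% of all genes), Lrat and Rpe65 lower and Ttr higher. Best1 read 5.73 to 6.02, below every array median. The other 9 were above the median gene, so the labelled cell type was present throughout. Other cells were present too and differed between the groups. The mean of 21 skeletal muscle markers was 6.59 to 7.65 in wild type and 7.67 to 8.59 in Mfrp rd6 (5 higher, 0 lower). The mean of 20 microglia and macrophage markers was 7.15 to 7.26 and 8.73 to 9.26 (15 higher, 0 lower). The mean of 16 rod markers was 7.15 to 8.26 and 6.93 to 7.28, with 0 of them changed. The mean of 10 adipocyte markers was 5.86 to 5.98 and 5.74 to 5.97, with 0 changed, and the fat cell hormone adiponectin (Adipoq) read 3.95 to 4.20 on all arrays, below every array's lower quartile. The lens marker mean of Mfrp rd6 replicate 2 was 8.07, against 6.41 to 6.63 on the other arrays. The mean of 12 choroidal endothelial markers was 6.83 to 7.30 and 7.38 to 7.76 (2 higher, 0 lower). The mean of 7 surface epithelium markers, mostly keratins, was 11.36 to 11.53 and 11.20 to 11.31, with 0 changed. Of these, 4 were without overlap, all lower in Mfrp rd6 (57.1%, against 9.82% of all genes and 16.1% of those above the median level). Over all genes, 2.15% were called by the test. In such bulk samples, fewer cells of a type and less RNA per cell cannot be told apart.

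No gene of the list passed the test between the genotypes. Of the 31 measured genes, 0 rose and 0 fell in Mfrp rd6 (limma, Benjamini-Hochberg adjusted p under 0.05 over all 19938 genes), where 2.15% of all genes passed (1.34% higher and 0.813% lower). The smallest adjusted p in the list was 0.171, that of Plin2. At an unadjusted p under 0.05 there were 5 genes (16.1%), near the 15.4% of all genes: Plin2 and Ppargc1a were higher, and Acsl4, Acsl5 and Hadha were lower. A fit with a variance trend and robust moderation also called 0, with 8 genes at an unadjusted p under 0.05. The median log2 change was -0.03 in the list and -0.02 over all genes, and the median size of a change, whatever its sign, was 0.08 and 0.09.

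The data also bounded how large a change in the whole sample could have been. For 30 of the 31 genes (96.8%), the 95% confidence interval of the change lay within a 1.5-fold rise and a 1.5-fold fall, as it did for 94.3% of all genes. The exception was Pdk4, whose interval reached a 1.77-fold rise. These intervals are on the scale of the deposited values, which understate the change of dim probe sets. They hold for the mixed sample and do not bound the change within RPE cells, since the marker means of other cells differed between the genotypes. The arrays of both groups did not overlap in 7 genes of the list (22.6%, against 15.3% of all genes). Plin2 was the 1 gene with all Mfrp rd6 arrays above all wild-type arrays (3.23%, against 5.52% of all genes and 6.39% of those above the median level). The 6 with all Mfrp rd6 arrays below were Acadm, Acadvl, Hadha, Acsl5, Ppara and Ppard (19.4%, against 9.82% of all genes and 16.1% of the genes above the median level).

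**Figure D1:**
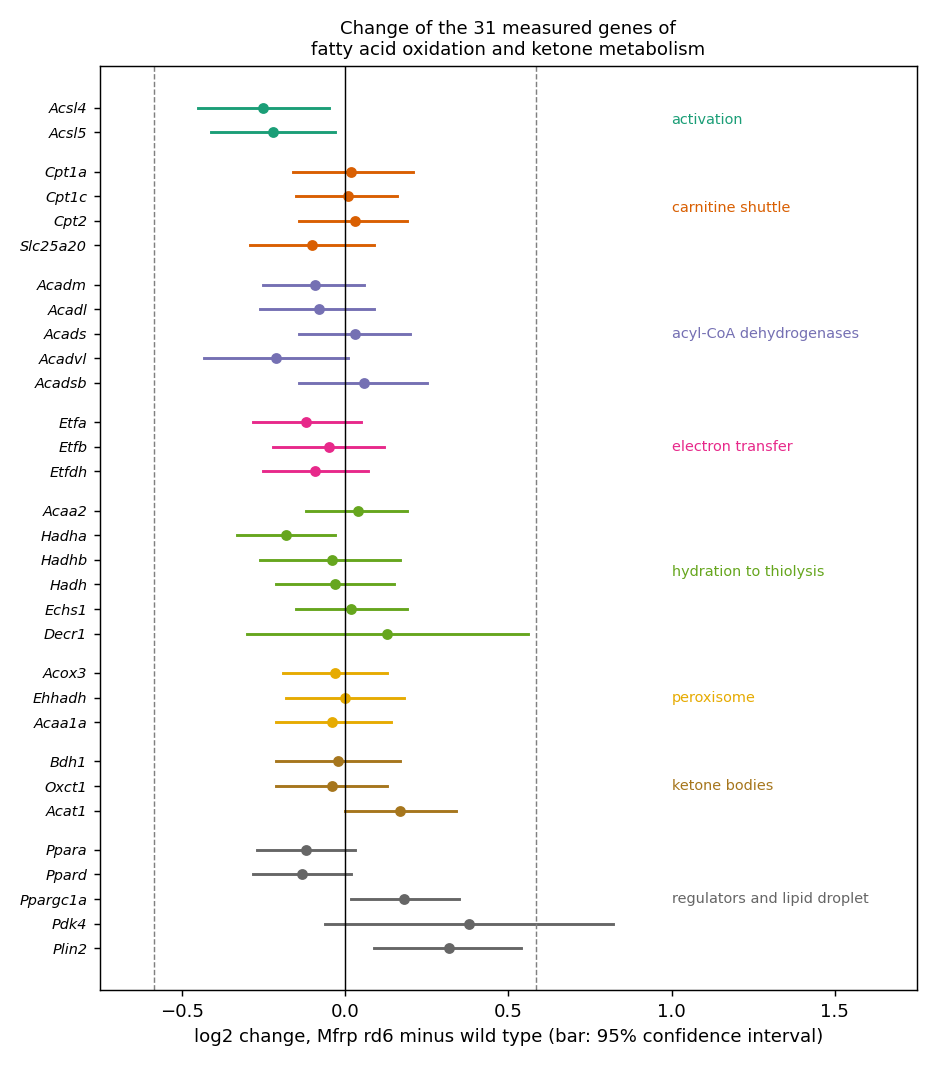
Log2 change (Mfrp rd6 minus wild type, x axis) of each of the 31 measured genes, in rows grouped and coloured by role. Points are the fitted changes, bars the 95% confidence intervals from limma, and dashed lines a 1.5-fold rise and fall; only the bar of Pdk4 crosses a dashed line.

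The promoters of the list were searched for the sequence that PPARs bind, since Plin2, Pdk4, Cpt1a and Acadm are known as PPAR targets. Windows from 250 bases before to 50 after the start were found in the RefSeq table (GRCm38.p6) for 28 of the 31 genes, 29 windows in all. The full site, a direct repeat of AGGTCA with any 1 base between the copies, was on neither strand of any of the 28 genes. It was on either strand of only 0.04% of all 32851 windows, so its absence from 28 genes says nothing about them. Sites outside these windows, or that differ from these letters, were not searched for. The single unit AGGTCA, on either strand, was in 6 genes (21.4%), against 16.3% of all windows. The GC box GGGCGG, on either strand, was in 21 of the 28 genes, against 35.7% of all windows. The 6 stretches with AGGTCA are shown to set the motif beside the values of these genes, each 5′ to 3′ in the direction of the gene with the motif, or its reverse complement TGACCT, in capitals:
Acadm: gTGACCTtcgggctccg
Plin2: tcaggaccccTGACCTaagtcagaca
Cpt1a: gtttccttacTGACCTcctccccgca
Cpt1c: gcagggagggAGGTCAaggctgtttc
Echs1: cagcccgctcAGGTCAcgggtccacc
Acadvl: ggatcaccctAGGTCAggtagaatac
They lie at chr3:153944877-153944893 (minus strand), chr4:86670262-86670287 (minus), chr19:3323197-3323222 (plus), chr7:44974982-44975007 (minus), chr7:140116489-140116514 (minus) and chr11:70015500-70015525 (minus). Of these 6 genes, Plin2 was the highest (0.32) and Acadvl the lowest (-0.21), and the others lay between -0.09 and 0.02. A match of these letters is a description, and it shows neither binding nor a cause.

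The genes of fatty acid activation gave the lowest changes of the list. Acsl4, an acyl-CoA synthetase that prefers arachidonic acid, read 9.18, 9.16, 9.12 and 8.97 in wild-type replicates 1 to 4 and 8.98, 8.70 and 8.89 in Mfrp rd6 replicates 1 to 3. All Mfrp rd6 arrays were below 3 of the wild-type arrays, and replicate 1 lay beside wild-type replicate 4. The change was -0.25 (SE 0.09, 95% interval -0.45 to -0.05, limma adjusted p = 0.209). Acsl5, a synthetase of the outer mitochondrial membrane and the endoplasmic reticulum, read 9.12, 9.31, 9.05 and 9.10 in wild type and 9.03, 8.91 and 8.83 in Mfrp rd6. The groups did not overlap, though wild-type replicate 3 and Mfrp rd6 replicate 1 were close, and the change of -0.22 (SE 0.08) did not pass either (limma adjusted p = 0.245).

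In the carnitine shuttle, the arrays of both groups overlapped for all 4 genes. Cpt1a, the enzyme that forms acyl-carnitine at the outer membrane and sets the pace of the pathway in most tissues, read 10.93, 10.87, 11.00 and 10.99 in wild type and 10.95, 11.12 and 10.84 in Mfrp rd6. Its change of 0.02 had a 95% interval from -0.16 to 0.21. Within Mfrp rd6, replicate 2 had the highest Cpt1a value of all arrays (11.12) and replicate 3 the lowest (10.84). The neuronal form Cpt1c differed by 0.01, and Cpt2, which rebuilds acyl-CoA inside the mitochondrion, by 0.03. Slc25a20, the carnitine carrier of the inner membrane, differed by -0.10 (95% interval -0.29 to 0.09).

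Among the 5 acyl-CoA dehydrogenases, which take the first electrons from the chain, the changes ran from -0.21 to 0.06. Acadvl, the form for very long chains, read 8.71, 8.72, 9.03 and 8.84 in wild type and 8.67, 8.70 and 8.48 in Mfrp rd6. The groups did not overlap, but wild-type replicates 1 and 2 stood close to Mfrp rd6 replicates 1 and 2, and the change of -0.21 did not pass (95% interval -0.43 to 0.01, limma adjusted p = 0.348). Fitted together with the skeletal muscle marker mean, the change of Acadvl was -0.56 (limma adjusted p = 0.173). Acadm, the medium-chain form, lay between 10.62 and 10.64 on the Mfrp rd6 arrays and between 10.65 and 10.84 on the wild-type arrays. Here too the arrays did not overlap, and the change was -0.09 (limma adjusted p = 0.597). The long-chain form Acadl (-0.08), the short-chain form Acads (0.03) and Acadsb, which acts on short branched chains (0.06), had overlapping arrays.

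The 3 genes that hand these electrons on differed by -0.05 to -0.12. They were Etfa (-0.12) and Etfb (-0.05), the subunits of the electron transfer flavoprotein, and Etfdh (-0.09), the dehydrogenase that passes its electrons to ubiquinone. The arrays overlapped in each, and the smallest adjusted p was 0.517, that of Etfa.

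The later steps of the cycle are carried out on long chains by the trifunctional protein, made of an alpha subunit, Hadha, and a beta subunit, Hadhb. The genes lie head to head, so 1 stretch of DNA precedes both, and it is shown because the values of both subunits bear on it. By the start sites of the RefSeq promoter table (GRCm38.p6), 272 bases separate them on chromosome 5, and 228 bases are shared by the 250 bases upstream of either gene. The 250 bases before the Hadhb start, on the plus strand at chr5:30155003-30155252, follow, with the letters GGGCGG (a GC box) in capitals at both places where they occur:
Hadhb upstream: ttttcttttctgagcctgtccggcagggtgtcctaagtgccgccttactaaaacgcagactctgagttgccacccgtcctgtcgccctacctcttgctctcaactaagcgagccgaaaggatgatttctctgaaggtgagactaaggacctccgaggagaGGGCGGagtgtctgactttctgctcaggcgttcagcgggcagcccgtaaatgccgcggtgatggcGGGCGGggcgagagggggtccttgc
Hadha read 10.70, 10.85, 10.80 and 10.79 in wild type and 10.62, 10.58 and 10.62 in Mfrp rd6. All Mfrp rd6 arrays were lower, and the change was -0.18 (SE 0.07, 95% interval -0.33 to -0.03, limma adjusted p = 0.232). Hadhb read 9.25, 9.56, 9.38 and 9.51 in wild type and 9.50, 9.41 and 9.24 in Mfrp rd6. These arrays overlapped, and the change was -0.04 (95% interval -0.26 to 0.17). A dimmer probe set for Hadhb gave -0.06. Whether the changes of the subunits differed from each other was not tested.

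For the other enzymes of these steps the arrays overlapped as well. Hadh, the dehydrogenase for shorter chains, differed by -0.03, Echs1, the short-chain hydratase, by 0.02, and Acaa2, the thiolase that ends the cycle, by 0.04. Decr1, the reductase that lets chains with certain double bonds enter the cycle, was the gene with the widest spread in wild type. It read 8.68, 8.07, 8.84 and 8.00 in wild type and 8.54, 8.58 and 8.47 in Mfrp rd6. Wild-type replicates 2 and 4 were thus below every Mfrp rd6 array, and replicates 1 and 3 were above them all. The SD of Decr1 was 0.42 (n = 4) on the wild-type arrays and 0.06 (n = 3) on the others, against a median SD over the list of 0.09 in either group. The change of 0.13 had a 95% interval from -0.30 to 0.56.

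Among peroxisomal genes, the thiolase Acaa1a (-0.04), the bifunctional enzyme Ehhadh (0.00) and the oxidase Acox3 (-0.03) had overlapping arrays, and no interval reached beyond -0.21 or 0.18. Among the ketone genes, Bdh1, which interconverts acetoacetate and beta-hydroxybutyrate, differed by -0.02 (95% interval -0.21 to 0.17), and Oxct1, which starts the use of ketone bodies as fuel, by -0.04 (-0.21 to 0.13). Acat1, the mitochondrial thiolase shared by the making and the breakdown of ketone bodies, read 9.85, 9.87, 10.05 and 9.94 in wild type and 10.18, 10.08 and 10.03 in Mfrp rd6. Only Mfrp rd6 replicate 3 fell within the wild-type range, and the change was 0.17 (95% interval 0.00 to 0.34, limma adjusted p = 0.331). Fitted together with the skeletal muscle marker mean, Acat1 differed by -0.01.

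**Figure D2:**
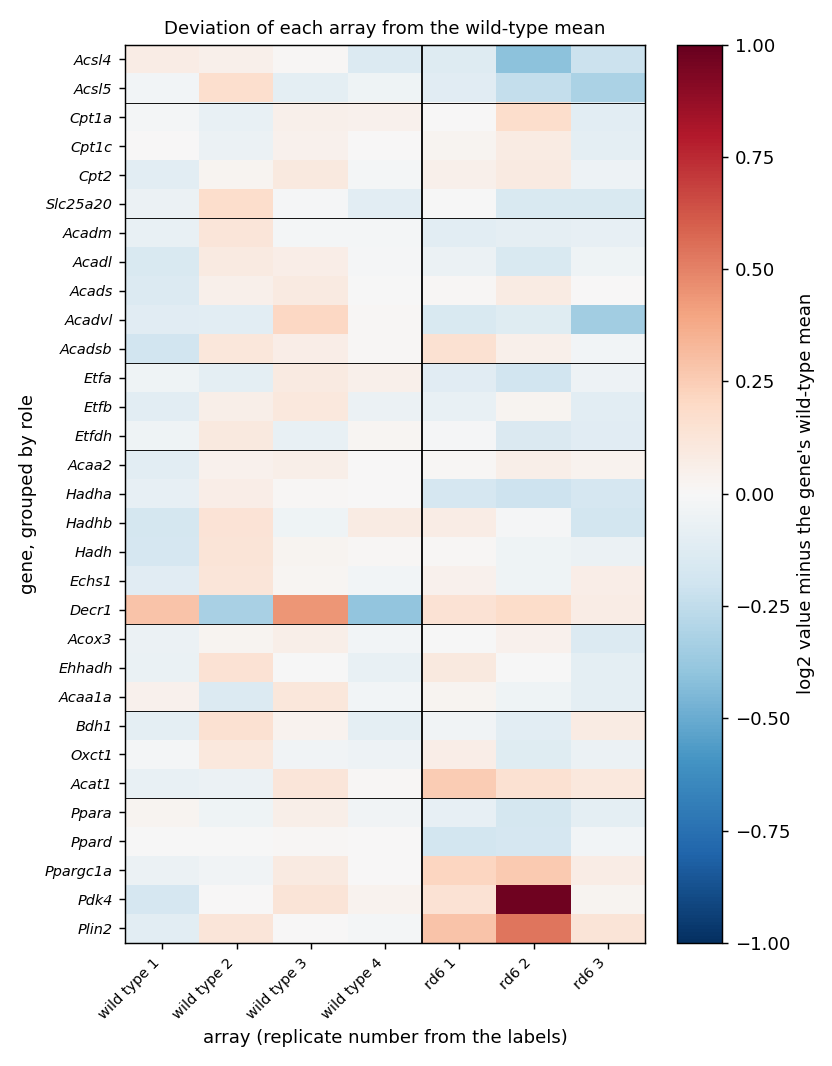
Heat map of the log2 value on each array minus the gene's wild-type mean (colour, from -1 to 1), with the 31 genes in rows grouped by role and the 7 arrays in columns. Most cells are pale; Pdk4 and Plin2 in Mfrp rd6 replicate 2 and Decr1 across the wild-type arrays stand out.

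The regulators and the lipid droplet gene held the highest changes. Plin2, a coat protein of lipid droplets whose gene responds to fatty acids through PPARs, read 9.40, 9.63, 9.51 and 9.49 in wild type and 9.79, 10.04 and 9.64 in Mfrp rd6. Mfrp rd6 replicate 2 was the highest, and replicate 3 lay just above wild-type replicate 2. The change was 0.32 (SE 0.10, 95% interval 0.09 to 0.54), a 1.24-fold difference that did not pass (limma adjusted p = 0.171). Over the alternatives without a marker mean in the model, the change of Plin2 stayed between 0.21 and 0.41, and its smallest adjusted p was 0.0706, with array weights. The lower bound of that range was reached without Mfrp rd6 replicate 2 (0.21, limma adjusted p = 0.43).

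Pdk4, the kinase that shuts pyruvate out of oxidation when fatty acids are burnt, read 6.93, 7.10, 7.22 and 7.13 in wild type and 7.24, 8.07 and 7.12 in Mfrp rd6. One array, Mfrp rd6 replicate 2, set the difference, while replicate 3 lay within the wild-type range and replicate 1 just above it. The change was 0.38 (SE 0.20, 95% interval -0.06 to 0.82, limma adjusted p = 0.405), and 0.08 without that array. The same array had the highest skeletal muscle mean (8.59), microglia and macrophage mean (9.26) and lens mean (8.07). Fitted together with the skeletal muscle mean, Pdk4 differed by -0.21 and Plin2 by 0.11, and with the microglia and macrophage mean by -2.90 (SE 0.40) and -0.91 (SE 0.45), none past the threshold. The microglia and macrophage mean nearly coincides with the genotype, so these last values are poorly determined. The skeletal muscle mean does not overlap between the genotypes either, so values fitted with it, here and for other genes, are less certain than those of the main fit. The part of other cells in these values was not tested.

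Ppargc1a, the coactivator that drives mitochondrial genes, read 9.88, 9.90, 10.03 and 9.94 in wild type and 10.15, 10.20 and 10.01 in Mfrp rd6. Only replicate 3 lay within the wild-type range, and the change was 0.18 (95% interval 0.02 to 0.35, limma adjusted p = 0.277). A dimmer probe set for Ppargc1a gave 0.09. Fitted together with the skeletal muscle mean, the change was -0.02. For both receptors all Mfrp rd6 arrays were below all wild-type arrays. Ppard, the PPAR form found in most tissues, read 9.92, 9.92, 9.94 and 9.93 in wild type, the tightest wild-type group of the list (SD 0.01), and 9.74, 9.76 and 9.90 in Mfrp rd6. All 3 were below wild type, replicate 3 only just, with a change of -0.13 (95% interval -0.28 to 0.02, limma adjusted p = 0.415). Ppara, the form that controls fatty acid oxidation in liver and heart, read 7.47, 7.40, 7.50 and 7.41 in wild type and 7.36, 7.27 and 7.35 in Mfrp rd6, a change of -0.12 (limma adjusted p = 0.440).

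**Figure D3:**
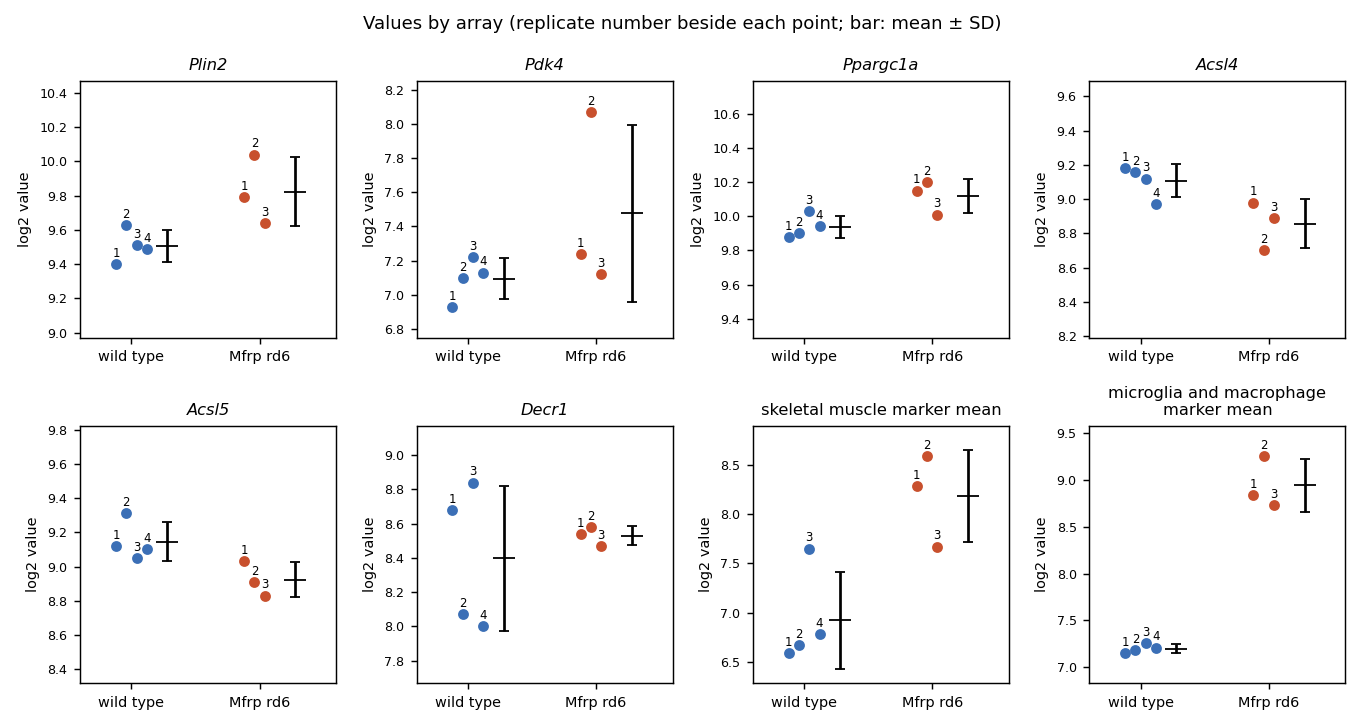
Log2 values by array for 6 genes of the list and for the skeletal muscle and the microglia and macrophage marker means, wild type in blue and Mfrp rd6 in orange, with replicate numbers and mean ± SD (n = 4 and 3). The axes differ between panels; Mfrp rd6 replicate 2 is the highest array for Plin2, Pdk4 and Ppargc1a and for both marker means, and Decr1 splits the wild-type arrays.

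A wider set of 113 further genes of fatty acid use, in 5 lists, was counted in the same fit. Of these, 104 were measured (9 were not analysed here), and 2 rose and 2 fell (3.85%, against 2.15% of all genes). The median change was -0.06. The 18 measured genes of peroxisomal oxidation and import held 0 that passed, with 3 at an unadjusted p under 0.05 (limma, 16.7%, against 15.4% of all genes). Their brightest probe set, that of the peroxisomal carrier Slc25a17, differed by -0.10. Among 25 genes of mitochondrial oxidation and acyl-CoA handling, 4 were at an unadjusted p under 0.05 (16.0%, against 15.4% of all genes), and 0 rose and 1 fell. The gene that fell was Acss2, listed for acyl-CoA handling. It makes acetyl-CoA from acetate, a substrate of lipid synthesis, and is not an enzyme of mitochondrial oxidation. Acss2 read 9.11, 9.45, 9.13 and 9.26 in wild type and 8.70, 8.69 and 8.63 in Mfrp rd6, without overlap, a change of -0.56 (SE 0.09, limma adjusted p = 0.0137). Leaving out Mfrp rd6 replicate 1 gave -0.58 (limma adjusted p = 0.0507), past the threshold no longer. Acss2 passed with the adipocyte mean in the model. It did not pass with the skeletal muscle, rod or microglia and macrophage mean, or without both wild-type replicate 3 and Mfrp rd6 replicate 2. The brightest of that list, the acyl-CoA binding protein Dbi, differed by 0.02.

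Of 9 genes of ketone body synthesis and export, 0 rose and 1 fell. At an unadjusted p under 0.05 (limma) there were 6 of the 9 (66.7%, against 15.4% of all genes), 2 of them higher and 4 lower. Of the 9, 5 had arrays that did not overlap (55.6%, against 15.3%). The list mixes enzymes, carriers that are not specific to ketone bodies and regulators, so these counts are not a measure of ketone body synthesis. Slc16a1, a carrier of lactate and ketone bodies and also the brightest of its list, read 11.96, 11.95, 12.05 and 11.86 in wild type and 11.51, 11.56 and 11.17 in Mfrp rd6. All Mfrp rd6 arrays were lower, replicate 3 the most, and the change was -0.54 (SE 0.10, limma adjusted p = 0.0266). The limma adjusted p of Slc16a1 was above 0.05 when wild-type replicate 1 (0.0741), 2 (0.0637) or 3 (0.0704) or Mfrp rd6 replicate 1 (0.0576) was left out. Slc16a1 passed with the adipocyte mean in the model. It did not pass with the skeletal muscle, rod or microglia and macrophage mean, or without both wild-type replicate 3 and Mfrp rd6 replicate 2. The related carrier Slc16a7, named after its values were seen, read 6.34 to 6.47 in wild type and 7.07, 6.94 and 6.62 in Mfrp rd6 (0.46, limma adjusted p = 0.0571).

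Of 26 genes of fatty acid uptake, binding and lipid droplets, 1 rose and 0 fell (3.85%, against 2.15% of all genes). At an unadjusted p under 0.05 there were 5 (19.2%, against 15.4%). Plin4, a lipid droplet coat protein found mainly in fat and muscle, read 7.23, 6.84, 7.28 and 7.28 in wild type and 8.02, 7.90 and 7.93 in Mfrp rd6. The groups did not overlap, and the rise of 0.79 (SE 0.11, 1.73-fold, limma adjusted p = 0.0072) was the largest of the wider set. Plin4 passed whichever of the 7 arrays was left out. Fitted together with the skeletal muscle mean, its change was 0.66 (limma adjusted p = 0.42). Of the 10 adipocyte markers, 4 were higher and 6 lower, with changes from -0.50 (Cidea, whose arrays did not overlap, limma adjusted p = 0.12) to 0.11 (Plin1). The brightest of the list, the transporter Slc27a1, differed by 0.01.

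Of 26 PPAR partners and targets, 1 rose and 0 fell (3.85%, against 2.15% of all genes). At an unadjusted p under 0.05 there were 6 (23.1%, against 15.4%). Rxrg, a retinoid X receptor that pairs with PPARs and is also a gene of muscle and cones, read 6.57, 6.49, 6.83 and 6.52 in wild type and 7.23, 7.27 and 7.04 in Mfrp rd6. All Mfrp rd6 arrays were higher, and wild-type replicate 3 was the highest of its group. That array also had the highest skeletal muscle mean (7.65) and rod mean (8.26) of the wild-type arrays. Between the groups, the skeletal muscle mean was higher in Mfrp rd6 (1.25), and the rod mean was lower (-0.47) with overlapping arrays. The part of other cells in the Rxrg values was not tested. The rise was 0.58 (SE 0.10, limma adjusted p = 0.018). The limma adjusted p of Rxrg was above 0.05 when wild-type replicate 1 (0.0551) or 4 (0.0564) or Mfrp rd6 replicate 1 (0.0783) or 2 (0.0795) was left out. Fitted together with the skeletal muscle mean, Rxrg was 0.22 higher (limma adjusted p = 0.722), and with the rod mean it was 0.69 higher (limma adjusted p = 0.0322). The pyruvate dehydrogenase kinase Pdk2, the brightest of the list, differed by 0.17 (limma adjusted p = 0.292).

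**Figure D4:**
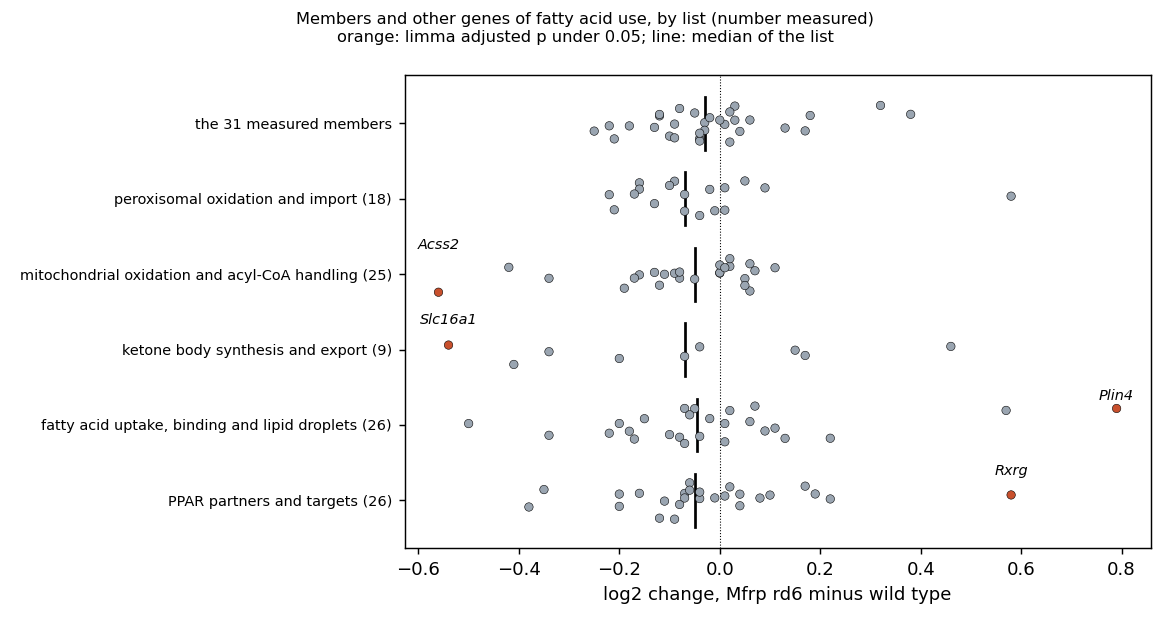
Log2 change (x axis, Mfrp rd6 minus wild type) of the 31 genes of the list and of the 104 further genes, 1 point a gene and 1 row a list, with the height within a row without meaning. Orange points passed limma's adjusted p under 0.05 and are named, and lines mark list medians; all medians lie between -0.07 and -0.03.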

How the data were processed

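The authors deposited log2 values, 1 per probe set and array, made with Affymetrix Expression Console and RMA per the submitters' processing notes. RMA corrects background, equalises the arrays and summarises probes, and it compresses changes of dim probe sets. Of 35556 probe sets, 21789 had 1 gene symbol in the platform annotation, which can be old. 1621 had several and 12146 had none. The brightest per gene left 19938 genes.

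The difference Mfrp rd6 minus wild type was fitted per gene in limma 3.58.1 under R 4.3.3 (lmFit, eBayes). The 7 arrays left 5 residual degrees of freedom, and Benjamini-Hochberg adjustment covered the whole table. There was no filter and no block. The script was tested on simulated data. The members, the further gene lists and the markers were chosen with earlier results of these data known. Named were all members and, from each further list, the genes past the threshold and the brightest. Of the adipocyte markers, 5 also stand in the further lists. Promoter sequences are RefSeq's. Alternatives were other scalings, filters, variance models, array weights, probe set rules, a block on replicate number, covariates made of marker means, and leaving out arrays. Figures used Python 3.11.15 and matplotlib 3.10.9.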

Additional observations from a re-analysis of the deposited data

Results flagged for a closer look

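Of 51 genes and marker means checked on the 4 wild-type arrays, 1 had an array that stood apart from the rest by Dixon's criterion, where chance gives about 1 in 20. Wild-type replicate 2 read 6.84 for Plin4, against 7.23 to 7.28 on the other wild-type arrays, a gap of 0.886 of the group's range.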

How the results depend on the processing

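No gene of the list passed in any of 21 alternatives (smallest adjusted p 0.0706), and between 0 and 10 of them had an unadjusted p under 0.05. Each array's median deviation of the members from their wild-type means had an SD of 0.0524, pooled within the groups. The median change moved by less than that SD, except when the model also held the skeletal muscle mean (-0.12) or the microglia and macrophage mean (-0.14). Neither of these means overlaps between the genotypes. Of 650 changes of single members, 69 had the other sign, 37 of them in the 4 covariate fits and 5 under another scaling. None was past the threshold. The count of calls over all genes and over the 104 further genes was 718 and 7 with a variance trend, 679 and 7 with array weights, 226 and 1 with the replicate block, 49 and 0 with the muscle, 165 and 2 with the rod and 0 and 0 with the microglia and macrophage covariate (limma, against 429 and 4). Leaving out 1 array gave 211 to 325 and 1 to 6, and dropping both wild-type replicate 3 and Mfrp rd6 replicate 2 gave 193 and 2. The lowest counts of the former were without Mfrp rd6 replicate 1, the fit of equal ages under the growth protocol. Rxrg was -0.16 with the microglia and macrophage covariate (adjusted p = 1.0). Acss2 (adjusted p = 0.0562), Slc16a1 (0.0773) and Rxrg (0.109) did not pass with the replicate block, which changed no member's call. The labels state no pairing by replicate number, so the numbers were not taken as pairs. Deviations from the group means correlated at -0.30, -0.07 and 0.04 between same-numbered arrays. Between differently numbered arrays they correlated at -0.27 to 0.37. With so few arrays, these values cannot exclude a pairing. The causes of these shifts were not tested.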

Other observations

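Acsl6, an acyl-CoA synthetase that prefers docosahexaenoic acid, was singled out after its values were seen. It read 10.77 to 11.00 in wild type and 10.44, 10.62 and 10.25 in Mfrp rd6, without overlap (-0.42, limma adjusted p = 0.0688). Its limma adjusted p was 0.0354 among genes above the median level, 0.0468 among genes with a mean of at least 6 and 0.0162 with a variance trend, and above 0.05 in the other alternatives.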
